A study of Mus musculus with 12 samples.

Results

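The comparison described here set wounds that received Staphylococcus aureus, a Gram-positive skin pathogen that commonly infects diabetic wounds, against wounds that received vehicle, both collected on day 3. Its members were chosen by treatment label and not by any measured value: the 4 S. aureus and the 4 vehicle libraries, 8 of the 12 libraries of the series, and all named genes that passed a count filter, 18218 of 29956. All mice in the study had the genotype B6.BKS(D)-Leprdb/db, so the control mice carried the same leptin receptor mutation and the same obesity and diabetes as the treated ones, and the series includes no non-diabetic group. Full-thickness punch wounds had been made in the back skin. The S. aureus group received live bacteria on the wound, the vehicle group received phosphate-buffered saline with glycerol, and the remaining 4 libraries came from wounds that received Alcaligenes faecalis, a Gram-negative bacterium. The sources used here do not give age, sex or the S. aureus strain. The series states 4 mice per group, so each library was read as 1 mouse. RNA came from whole wound skin, so fewer cells of a type and less RNA per cell cannot be told apart in any value below.

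When bacteria enter a wound, keratinocytes, macrophages and endothelial cells sense them and release chemokines and cytokines that draw neutrophils out of the blood. Interleukin 17 from T cells and interleukin 20 family cytokines make keratinocytes produce antimicrobial peptides and divide, and interferons switch on genes against intracellular microbes. Closing the wound then depends on keratinocytes that leave their resting state, migrate and later rebuild the cornified barrier, while fibroblasts and vessels rebuild the dermis.

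Levels are given in CPM, that is, counts for each M (mega) of scaled library size, and differences are log2 fold changes of S. aureus against vehicle with their standard error (SE). A gene is called when its adjusted p by edgeR's quasi-likelihood test over all 18218 genes was under 0.05. It is called stable when it was also called in each of 12 further fits that left out 1 library of the series. EdgeR called 1246 genes (6.84% of those tested), 705 higher (3.87%) and 541 lower (2.97%), and 241 of them (1.32%) were stable, 158 higher and 83 lower. The median log2 fold change over all genes tested was -0.04. Fewer genes were called when S. aureus replicate 3 (260 genes), 4 (381) or 2 (451), vehicle replicate 1 (672) or A. faecalis replicate 3 (792) was left out, and 350 when the 8 libraries were fitted alone. Counts of list members move likewise: of 165 called genes on the lists, 46 stayed called without S. aureus replicate 3, 69 without 4, 70 without 2, 92 without vehicle replicate 1 and 118 without vehicle replicate 3.

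Libraries held 38.4 to 71.3 M estimated counts, with 56.1 ± 4.58 M (mean ± SD, n = 4) for vehicle and 48.9 ± 9.62 M for S. aureus. The vehicle libraries were uneven. Vehicle replicate 3 stood apart on the first principal component (-72.6, with the S. aureus libraries at 23.3 to 60.0), with the lowest summed level of 35 neutrophil genes (2180 CPM, against 16485 CPM in the highest vehicle library) and the highest of 20 adipocyte genes (27715 CPM, against 6334 CPM in the lowest). Without it 973 genes were called, 556 higher and 417 lower. All 13 basal keratinocyte genes tested were detected in each of these 8 libraries. The basal keratin Krt5, for example, lay between 192 and 549 CPM. Of 32 genes of differentiated epidermis 1, the keratin Krt2, was at 0 in at least 1 of these libraries.

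Nearly all neutrophil genes had fold changes above 0 with S. aureus, although few passed the test. Of 35 genes of neutrophil identity and granules, 33 had a log2 fold change above 0, 5 were called higher (among them Cd177, Il1r2, Camp and Padi4) and 0 lower, and the median was 1.26 (1.07 without vehicle replicate 3). The S. aureus libraries lay above every vehicle library in 14 of the 35, against 7.56% of all genes tested. Their summed level was 15781 to 24939 CPM with S. aureus and 2180 to 16485 CPM with vehicle. Cd177, a surface protein of mature neutrophils, stood at 5.52, 31.7, 11.1 and 41.6 CPM in vehicle replicates 1 to 4 and at 91.1, 179, 122 and 112 CPM in S. aureus replicates 1 to 4 (log2 fold change 2.49, SE 0.526, edgeR adjusted p = 0.0228). The lowest S. aureus library thus held more than the highest vehicle library. Il1r2, the decoy receptor for interleukin 1 that neutrophils carry, ran from 39.0 to 195 CPM with vehicle and from 316 to 568 CPM with S. aureus (log2 fold change 1.97, SE 0.481, edgeR adjusted p = 0.0343). The call of Cd177 was lost in turn without each of S. aureus replicates 2 and 3 (p up to 0.0605 after adjustment) and that of Il1r2 in turn without each of vehicle replicate 1 and S. aureus replicates 2, 3 and 4 (p up to 0.0983 after adjustment).

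Several other neutrophil genes did not pass the test, among them the abundant S100a8, and vehicle replicates 2 and 4 held more of them than replicates 1 and 3. S100a8, a calprotectin subunit, was at 856, 1916, 242 and 2659 CPM with vehicle and 3503, 4024, 4991 and 3606 CPM with S. aureus (log2 fold change 1.51, SE 0.561, edgeR adjusted p = 0.113). Ly6g, the classical surface marker of mouse neutrophils, was at 3.09, 17.8, 1.03 and 28.4 CPM and 44.7, 48.5, 76.7 and 50.6 CPM (log2 fold change 2.14, SE 0.787, edgeR adjusted p = 0.11). In both genes the groups did not overlap, and both higher vehicle libraries stayed below every S. aureus library. Cxcr2, the neutrophil receptor for CXC chemokines, missed the threshold (log2 fold change 1.5, SE 0.445, edgeR adjusted p = 0.0624). Mpo, a primary granule enzyme made in bone marrow precursors, was low in all 8 libraries (0.789 to 3.07 CPM). Among the chemokines that attract neutrophils, Cxcl1 was at 25.9, 114, 13.1 and 62.6 CPM with vehicle and 174, 184, 223 and 181 CPM with S. aureus (log2 fold change 1.82, SE 0.550, edgeR adjusted p = 0.0653), and the groups did not overlap. Cxcl2 overlapped, with 108 to 1717 CPM for vehicle and 706 to 2462 CPM for S. aureus (log2 fold change 1.16, SE 0.719, edgeR adjusted p = 0.327).

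**Figure D1:**
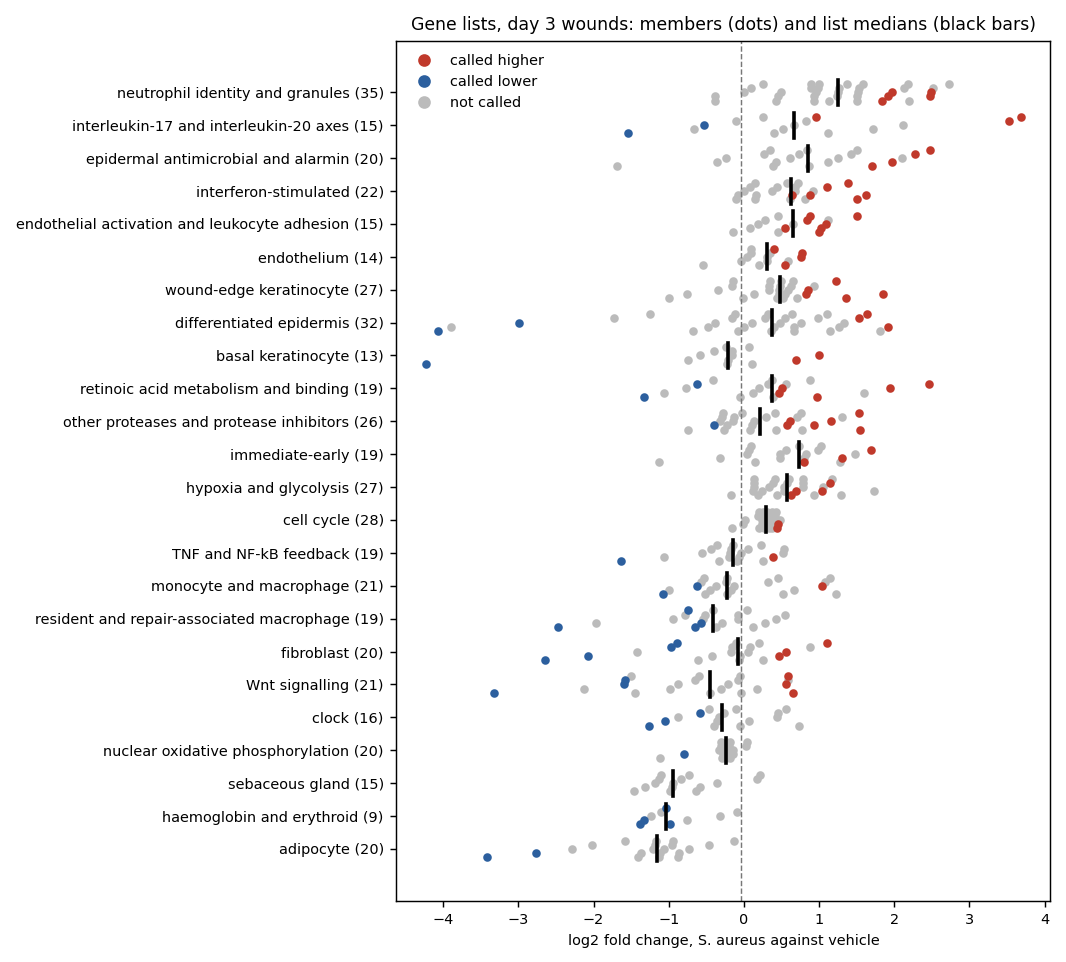
Log2 fold changes of S. aureus against vehicle (x axis) for the members of 24 gene lists (y axis, number of genes tested in brackets). Each dot is 1 gene, red where called higher, blue where called lower and grey where not called, the black bar is the list median and the dashed line the median of all genes tested (-0.04). The neutrophil list has the highest median shown (1.26) and the adipocyte list the lowest (-1.15, and -0.37 without vehicle replicate 3).

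Cytokines of the epithelial defence rose from very low levels. Il20, a cytokine that acts on keratinocytes, was at 0.0347, 0.0958, 0.0473 and 0.0546 CPM with vehicle and 0.914, 0.587, 1.04 and 0.532 CPM with S. aureus (log2 fold change 3.68, SE 0.550, edgeR adjusted p = 0.00815), a stable call. These levels rest on 13 counts over the vehicle libraries and 138 over the S. aureus libraries, a ratio of 12.9 (95% interval 7.28 to 24.8, counting error only). Il17a, the main effector cytokine of type 17 T cells, stood at 0, 0.307, 0.0316 and 0.146 CPM with vehicle and 1.70, 1.31, 1.65 and 0.855 CPM with S. aureus (log2 fold change 3.52, SE 0.731, edgeR adjusted p = 0.0214), from 26 and 251 counts and a ratio of 11.7 (7.80 to 18.3). Every S. aureus library lay above every vehicle library in both genes. The receptor subunit Il17ra rose as well, from 26.9, 42.7, 20.1 and 33.1 CPM to 54.3, 64.7, 61.9 and 57.7 CPM (log2 fold change 0.96, SE 0.182, edgeR adjusted p = 0.0159, stable). The interleukin 20 receptor chain Il20ra went the other way, with 0.954, 1.03, 1.62 and 1.11 CPM for vehicle and 0.575, 0.415, 0.381 and 0.266 CPM for S. aureus (log2 fold change -1.54, SE 0.348, edgeR adjusted p = 0.0267). The call of Il17a was lost without S. aureus replicate 3 (adjusted p = 0.0633) and that of Il20ra in turn without each of vehicle replicate 3 and S. aureus replicates 2, 3 and 4 (p up to 0.084 after adjustment). Of the 15 genes tested on the list of interleukin 17 and interleukin 20 axes, 3 were called higher (Il17a, Il17ra and Il20) and 2 lower (Il20ra and Il20rb; 0 without vehicle replicate 3).

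Oncostatin M and a subunit of its receptor both rose. Osm, a cytokine that neutrophils and macrophages release, was at 10.4, 30.7, 13.6 and 47.9 CPM with vehicle and 76.4, 118, 144 and 160.1 CPM with S. aureus (log2 fold change 2.28, SE 0.438, edgeR adjusted p = 0.0162). Its receptor subunit Osmr, which keratinocytes and fibroblasts carry, rose from 143, 159, 116 and 119 CPM to 216, 214, 199 and 195 CPM (log2 fold change 0.62, SE 0.137, edgeR adjusted p = 0.025). The lowest S. aureus library exceeded the highest vehicle library for both. The call of Osm was lost without S. aureus replicate 3 (adjusted p = 0.0505) and that of Osmr in turn without each of S. aureus replicates 2, 3 and 4 (p up to 0.0703 after adjustment). In the interleukin 1 family, receptors were called and ligands were not: 3 of 21 genes were higher, namely Il1r2, the signalling receptor Il1r1 (log2 fold change 0.67, SE 0.161, edgeR adjusted p = 0.0327) and Il1rl1, the receptor for interleukin 33 (log2 fold change 0.56, SE 0.122, edgeR adjusted p = 0.0247). The call of Il1r1 was lost in turn without each of vehicle replicate 1 and S. aureus replicates 2, 3 and 4 (p up to 0.0859 after adjustment) and that of Il1rl1 in turn without each of S. aureus replicates 3 and 4 (p up to 0.0731 after adjustment). Il1b itself ran from 169 to 1140 CPM with vehicle and from 1024 to 2048 CPM with S. aureus, and the groups overlapped (log2 fold change 1.12, SE 0.526, edgeR adjusted p = 0.195). Il6 overlapped too (log2 fold change 1.8, SE 0.658, edgeR adjusted p = 0.108).

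Genes of tumour necrosis factor signalling did not rise together. Of 19 genes of this pathway and its NF-kB feedback, 1 was called higher and 1 lower, and the median was -0.14. Tnf itself was at 54.9, 89.1, 17.7 and 141 CPM with vehicle and 23.0, 31.4, 59.1 and 31.6 CPM with S. aureus, an overlap of the groups with a lower mean in the infected wounds (log2 fold change -1.06, SE 0.548, edgeR adjusted p = 0.237). The called pair were the receptor Tnfrsf1a, which rose from 213, 247, 224 and 236 CPM to 288, 304, 305 and 306 CPM (log2 fold change 0.39, SE 0.0696, edgeR adjusted p = 0.0127, stable), and Tnip3, an inhibitor of NF-kB signalling, which fell from 3.83, 5.52, 4.12 and 2.95 CPM to 1.18, 1.33, 1.12 and 1.61 CPM (log2 fold change -1.64, SE 0.310, edgeR adjusted p = 0.0155). The call of Tnip3 was lost without S. aureus replicate 3 (adjusted p = 0.0565).

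Chemokines for other leukocytes moved in both directions. Ccl20, which attracts type 17 T cells and dendritic cells through Ccr6, was at 0.399, 0.345, 0.379 and 0.601 CPM with vehicle and 1.41, 1.07, 0.813 and 0.988 CPM with S. aureus (log2 fold change 1.31, SE 0.270, edgeR adjusted p = 0.0207, stable). Ccl27a, which keratinocytes make constitutively and which draws skin-homing T cells, fell from 2.5, 2.66, 5.16 and 3.75 CPM to 1.25, 1.16, 1.19 and 1.03 CPM (log2 fold change -1.61, SE 0.267, edgeR adjusted p = 0.0107, stable). The groups were apart in both. Cxcl9, an interferon-gamma induced chemokine, rose from 13.8, 29.8, 28.4 and 9.60 CPM to 104, 53.0, 88.6 and 36.8 CPM (log2 fold change 1.79, SE 0.406, edgeR adjusted p = 0.0271). The call of Cxcl9 was lost in turn without each of vehicle replicate 1 and S. aureus replicate 3 (p up to 0.0846 after adjustment). In all, 3 of 22 genes of monocyte and lymphocyte chemokines were called higher (Ccl20, Ccl22 and Cxcl9), 1 lower (Ccl27a), and the median of the list was -0.05.

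Part of the interferon-stimulated genes rose, and most of these calls were stable. Of 22 genes on the list 6 were called higher (among them Irf1, Gbp2, Gbp5, Oas2 and Oasl2) and 0 lower, 4 of the 6 were stable, and the median was 0.63 (0.93 without vehicle replicate 3). Irf1, a transcription factor that interferon-gamma induces, was at 68.5, 75.0, 73.6 and 58.9 CPM with vehicle and 215, 165, 221 and 119.6 CPM with S. aureus (log2 fold change 1.38, SE 0.197, edgeR adjusted p = 0.00776). Gbp2, a guanylate-binding protein that coats intracellular bacteria, was at 72.9, 74.8, 96.5 and 51.0 CPM and 303, 169, 315 and 119 CPM (log2 fold change 1.62, SE 0.298, edgeR adjusted p = 0.014). In both, S. aureus replicates 1 and 3 were the high libraries and replicate 4 the lowest, still above every vehicle library. Oasl2, an oligoadenylate synthetase-like protein, was also highest in these 2 libraries, with 154, 111, 209.6 and 112 CPM with S. aureus against 74.2, 68.4, 73.2 and 56.6 CPM with vehicle (log2 fold change 1.11, SE 0.201, edgeR adjusted p = 0.0134).

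Oas2, a synthetase that activates RNase L, rose by a smaller amount, from 50.5, 48.4, 38.6 and 40.7 CPM to 70.7, 65.1, 82.7 and 59.2 CPM (log2 fold change 0.64, SE 0.115, edgeR adjusted p = 0.0127). Outside the list, Oas3 rose from 37.9, 54.2, 65.1 and 70.0 CPM to 129, 111, 205 and 118 CPM (log2 fold change 1.31, SE 0.254, edgeR adjusted p = 0.0167, stable). Sp110, a nuclear body protein that interferons induce, shared the lowest adjusted p of the comparison, with 51.1, 44.8, 41.4 and 47.4 CPM against 96.8, 95.4, 98.5 and 92.2 CPM (log2 fold change 1.05, SE 0.113, edgeR adjusted p = 0.00332, stable). Its 4 S. aureus values differed by little and lay about 2-fold above vehicle (fold 2.07). Isg15, a ubiquitin-like protein that type I interferons induce strongly, overlapped between groups (log2 fold change 0.92, SE 0.345, edgeR adjusted p = 0.116).

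The sequences just upstream of 3 of these genes are shown because interferon induction is known to act through 2 short elements, the interferon-stimulated response element and the gamma-activated site. They are the 180 bases before the RefSeq start, from the GRCm38.p6 table, for 3 of the 4 called list genes found in that table; all 3 are on the + strand, and for Irf1 the first of 2 listed starts is shown. Capitals mark matches, on either strand, to GAAANNGAAA for the first element and TTCNNNGAA for the second, patterns chosen after the values were seen.
Gbp2, chr3:142620483-142620662: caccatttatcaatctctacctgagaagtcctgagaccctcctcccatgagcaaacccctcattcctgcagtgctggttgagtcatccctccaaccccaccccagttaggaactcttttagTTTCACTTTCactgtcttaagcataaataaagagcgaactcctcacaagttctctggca
Gbp5, chr3:142496754-142496933: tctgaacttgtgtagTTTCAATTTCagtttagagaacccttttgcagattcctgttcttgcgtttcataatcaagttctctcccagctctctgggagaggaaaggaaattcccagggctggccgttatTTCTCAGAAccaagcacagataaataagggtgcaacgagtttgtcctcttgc
Irf1, chr11:53769834-53770013: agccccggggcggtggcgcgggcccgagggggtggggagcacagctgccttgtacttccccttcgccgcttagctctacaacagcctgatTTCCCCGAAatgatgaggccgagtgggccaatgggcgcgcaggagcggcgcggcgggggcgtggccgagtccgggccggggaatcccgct
Gbp2 holds 1 match to the first pattern, Gbp5 1 match to each within the stretch shown, and Irf1 1 match to the second. The 250 bases before the other listed start of Irf1 hold neither pattern. Gbp5 rose from 11.1, 10.2, 15.7 and 6.85 CPM to 44.5, 21.6, 43.7 and 15.1 CPM (log2 fold change 1.51, SE 0.358, edgeR adjusted p = 0.0323). The call of Gbp5 was lost in turn without each of vehicle replicates 1 and 2 and S. aureus replicates 1 and 3 (p up to 0.0988 after adjustment). The 250 bases before the start of Oasl2, the remaining gene found, hold neither pattern. Of 32851 promoters of the table, 2.98% hold the first pattern and 7.02% the second in their 250 bases before the start. A match is a string of letters and no measurement of binding.

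Several genes of activated endothelium rose with S. aureus, among them the adhesion molecules that capture leukocytes. On the list of endothelial activation and leukocyte adhesion 7 of 15 genes were called higher (Selp, Sele, Vcam1, Angpt2, Aplnr, Lrg1 and Thbd) and 0 lower, with a median of 0.66. In 8 of the 15 the S. aureus libraries lay above all vehicle libraries, against 7.56% of all genes. Selp, the P-selectin that captures rolling leukocytes, was at 32.5, 51.0, 27.9 and 36.3 CPM with vehicle and 105, 129.8, 97.5 and 87.9 CPM with S. aureus (log2 fold change 1.51, SE 0.174, edgeR adjusted p = 0.00332, stable). Sele, the E-selectin of cytokine-activated endothelium, was at 3.92, 5.02, 5.30 and 4.13 CPM and 10.4, 9.73, 6.83 and 6.80 CPM (log2 fold change 0.88, SE 0.17, edgeR adjusted p = 0.0162, stable). Both selectins were higher in each infected wound than in any control wound. Thbd, the thrombin receptor thrombomodulin that dampens clotting, rose from 102, 168, 104 and 166 CPM to 202, 271, 293 and 309.6 CPM (log2 fold change 1.0, SE 0.186, edgeR adjusted p = 0.0149). The call of Thbd was lost without S. aureus replicate 3 (adjusted p = 0.0503). Aplnr, the apelin receptor of sprouting vessels, rose from 120.4, 134, 89.2 and 81.9 CPM to 185, 242, 238 and 242 CPM (log2 fold change 1.09, SE 0.221, edgeR adjusted p = 0.0198). The call of Aplnr was lost in turn without each of S. aureus replicates 2, 3 and 4 (p up to 0.0619 after adjustment).

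Markers of endothelium as such moved less. Of 14 endothelial identity genes 4 were called higher (Pecam1, Flt1, Emcn and Plvap) and 0 lower, with a median of 0.31. Their summed level was 2210 to 2435 CPM with S. aureus and 1367 to 1987 CPM with vehicle. The list score of these markers overlapped narrowly between groups (0.174 to 0.251 with S. aureus, -0.440 to 0.175 with vehicle). The part of these markers in the rise of the adhesion genes was not tested. Emcn, an endothelial sialomucin, had a log2 fold change of 0.78 (SE 0.149, edgeR adjusted p = 0.016), and Flt1, the VEGF receptor 1, of 0.76 (SE 0.147, edgeR adjusted p = 0.0163). The call of Emcn was lost in turn without each of S. aureus replicates 3 and 4 (p up to 0.0586 after adjustment) and that of Flt1 in turn without each of S. aureus replicates 3 and 4 (p up to 0.0599 after adjustment). Ets1, a transcription factor of endothelium and lymphocytes, rose in a narrow range, from 159.6, 169, 139 and 157 CPM to 241, 284, 305 and 280.1 CPM (log2 fold change 0.83, SE 0.0942, edgeR adjusted p = 0.00332, stable). Bmx, a tyrosine kinase of arterial endothelium and myeloid cells, rose from 4.42, 7.89, 4.65 and 8.54 CPM to 13.8, 16.4, 17.1 and 16.3 CPM (log2 fold change 1.32, SE 0.199, edgeR adjusted p = 0.0084, stable). The vessel growth factor Vegfa was at 69.5, 106, 96.2 and 129 CPM with vehicle and 129.8, 233, 211 and 251 CPM with S. aureus (log2 fold change 1.04, SE 0.226, edgeR adjusted p = 0.0241), so that S. aureus replicate 1 was just above the highest vehicle library. The call of Vegfa was lost in turn without each of S. aureus replicates 2, 3 and 4 (p up to 0.0716 after adjustment). Of 18 genes of VEGF, PDGF and angiopoietin signalling, 6 were called higher and 0 lower.

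Some marker genes of tissue-resident macrophages fell. Of 19 genes of resident and repair-associated macrophages 4 were called lower (Folr2, Mgl2, Pltp and Sepp1), against 2.97% of all genes tested, and 0 higher. Of these calls 0 were stable, and the median of the list was -0.42. The summed level of the 19 overlapped between groups (4350 to 5663 CPM with S. aureus, 5572 to 7442 CPM with vehicle). The list score overlapped too (-0.43 to 0.32 with S. aureus, -0.14 to 0.54 with vehicle). Of 21 general monocyte and macrophage genes 2 were lower (Emr1 and Ms4a7; 4 without vehicle replicate 3) and 1 higher (Plac8). Emr1, which encodes the macrophage marker F4/80, was at 249, 367, 208 and 209 CPM with vehicle and 134, 101, 138 and 117 CPM with S. aureus (log2 fold change -1.07, SE 0.234, edgeR adjusted p = 0.0244). Folr2, a folate receptor of resident macrophages, fell from 73.8, 54.3, 74.6 and 49.2 CPM to 47.0, 31.6, 38.7 and 32.5 CPM (log2 fold change -0.75, SE 0.156, edgeR adjusted p = 0.0215). No S. aureus library reached the lowest vehicle library for either. Plac8, which monocytes and neutrophils express, rose from 89.8, 113, 99.1 and 81.1 CPM to 218, 159.6, 275 and 132 CPM (log2 fold change 1.03, SE 0.228, edgeR adjusted p = 0.0248). The call of Emr1 was lost in turn without each of S. aureus replicates 2, 3 and 4 (p up to 0.0672 after adjustment), that of Folr2 in turn without each of vehicle replicate 1 and S. aureus replicates 2, 3 and 4 (p up to 0.0651 after adjustment) and that of Plac8 in turn without each of vehicle replicate 1 and S. aureus replicate 3 (p up to 0.0716 after adjustment). The mannose receptor Mrc1, another marker of resident macrophages, overlapped (log2 fold change -0.78, SE 0.237, edgeR adjusted p = 0.0665). The summed level of the 21 general genes overlapped between groups (6338 to 9325 CPM with S. aureus, 5652 to 9402 CPM with vehicle).

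Stable falls among myeloid genes were found for Clec4b1, Maf and Fcrls, which stand on no list. Clec4b1, a C-type lectin of monocyte-derived and dendritic cells, was at 1.23, 1.59, 1.59 and 1.44 CPM with vehicle and 0.366, 0.190, 0.178 and 0.209 CPM with S. aureus (log2 fold change -2.64, SE 0.301, edgeR adjusted p = 0.00332). Maf, a transcription factor that holds the resident macrophage programme, fell from 331, 308, 296 and 339 CPM to 219, 179.9, 183 and 188 CPM (log2 fold change -0.73, SE 0.0981, edgeR adjusted p = 0.00648). Fcrls, an Fc receptor-like scavenger receptor of tissue macrophages, fell from 28.2, 15.1, 14.8 and 12.8 CPM to 6.24, 3.18, 5.23 and 5.07 CPM (log2 fold change -1.85, SE 0.317, edgeR adjusted p = 0.0109). All 3 were separated from vehicle in every library. Tbxas1, the thromboxane synthase of platelets and macrophages, fell by 0.65 on the log2 scale (SE 0.124, edgeR adjusted p = 0.016), and Cd55, the decay-accelerating factor that protects cells from complement, by 0.81 (SE 0.126, edgeR adjusted p = 0.00875). Both calls were stable.

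**Figure D2:**
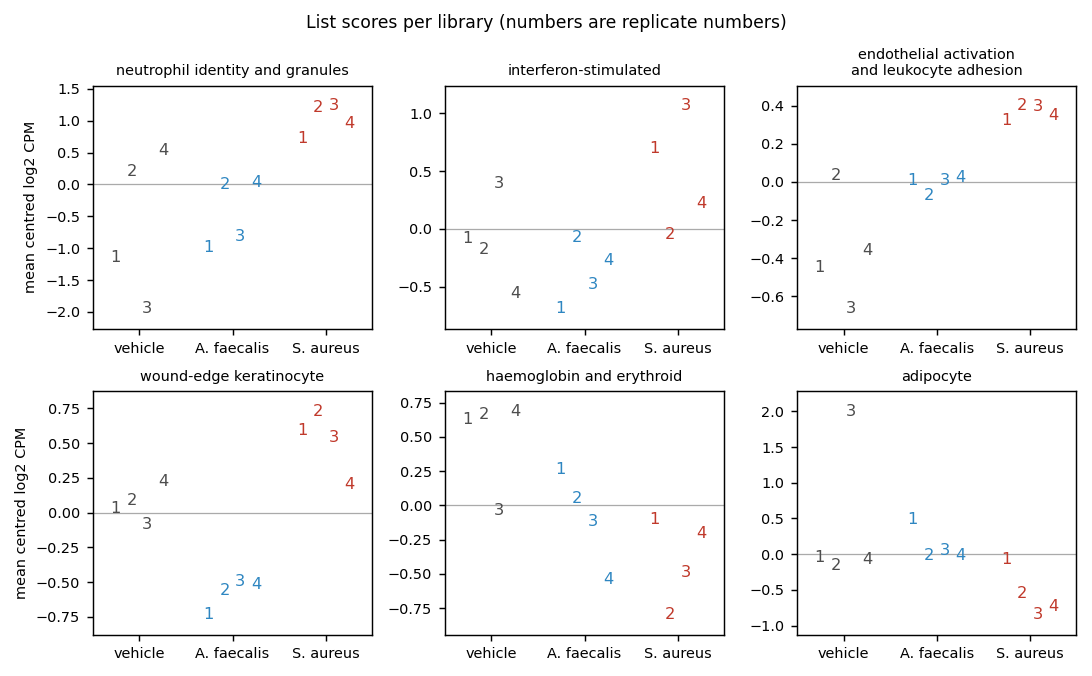
Score of 6 gene lists in each of the 12 libraries (y axis, mean over the list of log2 CPM centred on the 12-library mean of each gene; x axis, treatment). Numbers are replicate numbers, and 0 is the mean of all libraries. S. aureus libraries were at 0.73 to 1.23 for the neutrophil list, vehicle libraries at -1.95 to 0.53, and vehicle replicate 3 was at 1.99 for the adipocyte list.

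Among epidermal genes, Krt15, Krt77 and Flg2 fell. Most other differentiation genes had log2 fold changes above 0, unevenly between the S. aureus libraries, and few were called. Of 32 genes of differentiated epidermis 3 were called higher (Tgm1, Lce3a and Lce3f) and 2 lower (Krt77 and Flg2). A log2 fold change above 0 was found in 21, and the median was 0.38. The list score was 0.71 and 0.79 in S. aureus replicates 1 and 2, above every vehicle library (0.12 to 0.44). In S. aureus replicates 3 and 4 it was -0.27 and -0.31, below every vehicle library. Krt15, a keratin of quiescent basal keratinocytes and of the hair follicle bulge, was at 13.6, 12.9, 51.7 and 18.2 CPM with vehicle and 2.14, 1.0, 0.533 and 1.48 CPM with S. aureus (log2 fold change -4.23, SE 0.613, edgeR adjusted p = 0.00791). Krt77, a suprabasal keratin of skin and sweat ducts, was at 51.2, 34.6, 141 and 47.2 CPM and 8.15, 2.68, 1.04 and 4.50 CPM (log2 fold change -4.07, SE 0.633, edgeR adjusted p = 0.00875). Flg2, a filaggrin-like barrier protein, was at 87.7, 64.0, 235 and 87.9 CPM and 22.1, 16.6, 5.44 and 15.5 CPM (log2 fold change -2.99, SE 0.486, edgeR adjusted p = 0.01). All 3 were stable, and all 3 were highest in vehicle replicate 3; without that library their log2 fold changes were -3.52, -3.43 and -2.41. Other basal keratinocyte genes did not follow: of 13 on the list, Krt15 alone was called lower and 2 were called higher (Igfbp3 and Thbd). The summed level of the list was 2111 to 3418 CPM with S. aureus and 2277 to 3187 CPM with vehicle. Thbd also stands on the list of endothelial activation above, and the part of each cell type in its rise was not tested. The basal keratin Krt5 and the stress keratin Krt6a overlapped between groups (log2 fold change -0.22, SE 0.318, edgeR adjusted p = 0.698 for Krt5; log2 fold change 0.47, SE 0.292, edgeR adjusted p = 0.327 for Krt6a).

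The Lce3 genes encode late cornified envelope proteins that are induced when the barrier is damaged. The family, like those below, was grouped by symbol after the values were seen. All 6 tested members were above vehicle in every S. aureus library, against 7.56% of all genes tested. Of the 6 members 4 were called and stable, against 1.32% of all genes tested in either direction, and the median log2 fold change was 1.73. Lce3a was at 3.14, 3.87, 2.30 and 4.12 CPM with vehicle and 18.6, 12.8, 11.5 and 7.73 CPM with S. aureus (log2 fold change 1.91, SE 0.338, edgeR adjusted p = 0.012). Lce3b (log2 fold change 1.81, SE 0.326, edgeR adjusted p = 0.0127), Lce3e (log2 fold change 1.88, SE 0.362, edgeR adjusted p = 0.0163) and Lce3f (log2 fold change 1.64, SE 0.290, edgeR adjusted p = 0.012) changed by like amounts. In each of the 4, S. aureus replicate 4 was the lowest infected wound. The neighbouring Lce1 genes, which belong to ordinary cornification, had a median of -0.04 over 14 members, of which 1 was called (Lce1m, lower). Reads shared between such paralogs were divided by the quantification, so values of single members are uncertain.

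On a list of antimicrobial and alarmin genes 4 of 20 were called higher (Defb4, Camp, Rnase2b and Reg3g) and 0 lower, with a median of 0.85. Camp is also a granule gene of the neutrophil list, whose summed level is given above, and its part in this count was not tested. Defb4, the mouse beta-defensin related to the human inducible beta-defensin 2, was at 1.02, 0.747, 0.883 and 0.692 CPM with vehicle and 5.28, 6.43, 2.69 and 1.92 CPM with S. aureus (log2 fold change 2.28, SE 0.421, edgeR adjusted p = 0.0139, stable). Rnase2b, an eosinophil-type ribonuclease with antimicrobial relatives, rose from 2.27, 3.18, 1.53 and 2.06 CPM to 10.4, 15.1, 4.24 and 5.60 CPM (log2 fold change 1.97, SE 0.432, edgeR adjusted p = 0.0247). The call of Rnase2b was lost in turn without each of vehicle replicate 1 and S. aureus replicate 2 (p up to 0.0648 after adjustment). S. aureus replicates 1 and 2 held the higher levels of both. Genes of the activated wound edge were called higher in 5 of 27 cases (Plaur, Hbegf, Hmga2, Inhba and Tnc) and lower in 0, with a median of 0.48. Their summed level, which follows the most abundant genes, was 8874 to 10561 CPM with S. aureus and 3714 to 6282 CPM with vehicle. The list score overlapped between groups (0.20 to 0.73 with S. aureus, -0.09 to 0.22 with vehicle). Hbegf, a ligand of the EGF receptor, rose from 14.5, 19.8, 17.5 and 19.5 CPM to 37.9, 28.3, 36.6 and 23.0 CPM (log2 fold change 0.82, SE 0.159, edgeR adjusted p = 0.0164). The call of Hbegf was lost without S. aureus replicate 3 (adjusted p = 0.0585). Hmga2, a chromatin protein of proliferating and migrating cells, rose from 12.4, 10.1, 13.6 and 10.4 CPM to 18.1, 23.9, 18.0 and 24.0 CPM (log2 fold change 0.86, SE 0.148, edgeR adjusted p = 0.0109, stable).

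Most of the Skint genes, whose first member directs the development of epidermal gamma-delta T cells, fell. Of 9 members tested 6 were called lower, 3 of them stable, and 0 higher, with a median of -1.21. Skint1 was at 3.56, 1.67, 2.24 and 2.11 CPM with vehicle and 0.470, 0.639, 0.508 and 0.722 CPM with S. aureus (log2 fold change -2.02, SE 0.278, edgeR adjusted p = 0.00648). Skint5 (log2 fold change -2.33, SE 0.399, edgeR adjusted p = 0.0107) and Skint6 (log2 fold change -2.11, SE 0.401, edgeR adjusted p = 0.0157) had falls of like size, and no infected wound reached the control range in any of the 3. Mill1, an MHC class I-like protein, fell from 6.02, 4.02, 7.26 and 4.72 CPM to 1.10, 1.42, 1.42 and 0.950 CPM (log2 fold change -2.17, SE 0.295, edgeR adjusted p = 0.00648, stable). Fcgbp, a mucin-like secreted protein, fell from 44.6, 30.1, 62.9 and 34.8 CPM to 12.6, 5.42, 9.53 and 5.53 CPM (log2 fold change -2.39, SE 0.350, edgeR adjusted p = 0.00791, stable). Bbox1, the last enzyme of carnitine synthesis, fell from 6.66, 4.58, 8.41 and 3.86 CPM to 1.18, 1.02, 0.330 and 1.06 CPM (log2 fold change -2.70, SE 0.402, edgeR adjusted p = 0.00815, stable).

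**Figure D3:**
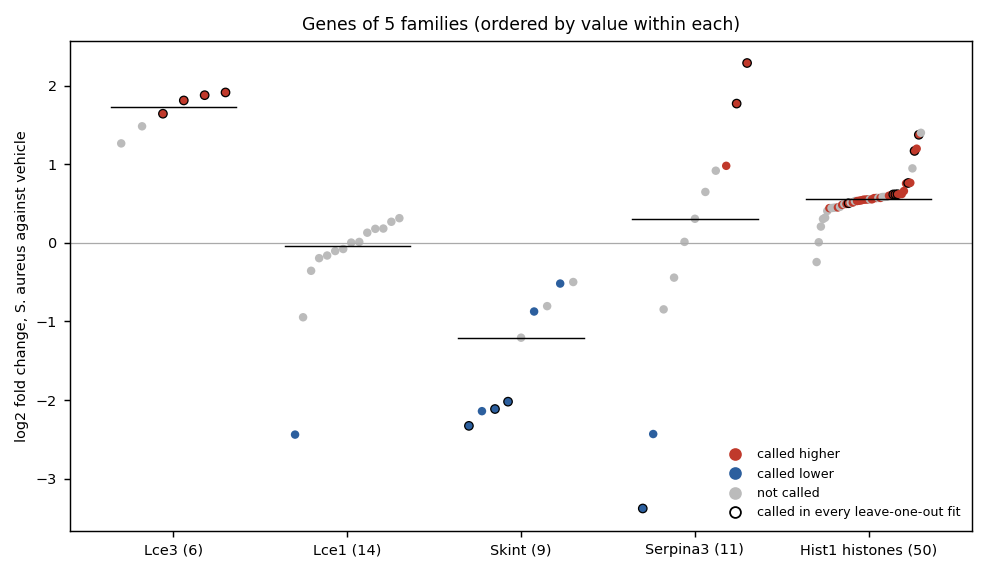
Log2 fold changes of S. aureus against vehicle (y axis) for the tested members of 5 gene families (x axis, number in brackets), ordered by value within each. Red marks genes called higher, blue called lower, grey not called, a black ring a call kept in all leave-one-out fits, and the bar the median. Lce3 (median 1.73) and Hist1 histone genes (0.55) lay mostly above 0 and Skint genes (-1.21) below, while Serpina3 genes were called in both directions.

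Genes of retinoic acid synthesis were called in both directions. Of 19 genes of its metabolism and binding 5 were higher (among them Aldh1a2, Rdh12, Dhrs9 and Rarres2) and 2 lower (Aldh1a1 and Dhrs3), with a median of 0.38; without vehicle replicate 3 the counts were 3 and 1. Aldh1a2, which makes retinoic acid from retinal, was at 1.54, 3.41, 1.2 and 3.92 CPM with vehicle and 15.6, 16.3, 8.10 and 15.2 CPM with S. aureus (log2 fold change 2.46, SE 0.384, edgeR adjusted p = 0.00875, stable). Dhrs9, a dehydrogenase that can make retinal, rose from 38.8, 51.1, 41.6 and 58.0 CPM to 83.9, 105, 99.6 and 82.6 CPM (log2 fold change 0.97, SE 0.162, edgeR adjusted p = 0.0107, stable). The related enzyme Aldh1a1 went the other way, from 7.95, 7.85, 10.9 and 10.5 CPM to 3.84, 2.40, 5.92 and 2.72 CPM (log2 fold change -1.33, SE 0.285, edgeR adjusted p = 0.024). The call of Aldh1a1 was lost in turn without each of S. aureus replicates 2 and 4 (p up to 0.0696 after adjustment). Aldh1a2 and Aldh1a1 thus changed in opposite directions, with no overlap of the groups in either. Rdh12, a retinol dehydrogenase, was uneven in vehicle in the manner of the neutrophil genes, with 26.2, 85.5, 19.8 and 123 CPM, against 145, 245, 309.7 and 282 CPM with S. aureus (log2 fold change 1.95, SE 0.519, edgeR adjusted p = 0.0457). It was called in 2 of the 12 fits that left out 1 library (adjusted p up to 0.12).

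The serine protease inhibitors of the Serpina3 cluster split. Of 11 members tested 3 were called higher (Serpina3f, Serpina3g and Serpina3i) and 2 lower (Serpina3b and Serpina3j). Serpina3f rose from 3.83, 9.20, 3.58 and 5.17 CPM to 32.1, 27.0, 33.2 and 13.9 CPM (log2 fold change 2.29, SE 0.36, edgeR adjusted p = 0.00885) and was stable. Serpina3g, an inhibitor of cathepsins in leukocytes, rose from 17.5, 19.0, 11.3 and 11 CPM to 55.7, 57.6, 55.0 and 32.4 CPM (log2 fold change 1.77, SE 0.235, edgeR adjusted p = 0.00648, stable). Serpina3b, by contrast, was at 4.77, 6.78, 16.8 and 7.49 CPM with vehicle and 1.38, 0.795, 0.279 and 0.988 CPM with S. aureus (log2 fold change -3.38, SE 0.529, edgeR adjusted p = 0.00885, stable), with its highest value in vehicle replicate 3 (log2 fold change -2.86 without it). Outside the cluster by symbol, Serpina9 rose (log2 fold change 1.79, SE 0.311, edgeR adjusted p = 0.0109) and Serpina1a, an alpha-1-antitrypsin, fell (log2 fold change -2.34, SE 0.418, edgeR adjusted p = 0.0126), both stable. These genes are close paralogs, so the division of shared reads bears on single members.

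Several proteases that cut matrix, and the urokinase receptor, rose. Plaur, the urokinase receptor that focuses plasmin at the cell front, was at 52.9, 122, 58.7 and 129 CPM with vehicle and 209, 341, 369 and 384 CPM with S. aureus (log2 fold change 1.85, SE 0.306, edgeR adjusted p = 0.0107, stable). The stromelysins Mmp3 (library values from 88.7 to 322 CPM with vehicle and from 575 to 824 CPM with S. aureus) and Mmp10 (from 6.45 to 10.7 CPM and from 17.6 to 24.8 CPM) were both called higher and stable. Adamts4, an aggrecan-cleaving protease, rose from 69.2, 122, 40.4 and 76.2 CPM to 184, 209, 257 and 245 CPM (log2 fold change 1.54, SE 0.265, edgeR adjusted p = 0.0109, stable). Adamts1 rose by less, from 126, 138, 119.9 and 117 CPM to 219.5, 185, 183 and 174 CPM (log2 fold change 0.61, SE 0.116, edgeR adjusted p = 0.0159, stable). No vehicle library reached the lowest S. aureus library in any of these 5 genes. The rise was not shared by most matrix metalloproteinases: of 21 tested 3 were called higher (Mmp3, Mmp10 and Mmp15) and 1 lower (Mmp28), with a median of 0.12. Of 26 genes on the list of other proteases and inhibitors 6 were called higher and 1 lower (the lysosomal cathepsin Ctsb).

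In the dermis, growth factor genes and their antagonists changed while the fibroblast genes as a whole did not move one way. Of 20 fibroblast genes 3 were called higher (Pdgfra, Pdgfrb and Prg4) and 4 lower (Dpt, Dpp4, Clec3b and Cilp; 2 without vehicle replicate 3), with a median of -0.08. Grem1, a secreted antagonist of bone morphogenetic proteins, was at 13.8, 17.2, 5.40 and 13.3 CPM with vehicle and 55.7, 48.2, 50.8 and 31.9 CPM with S. aureus (log2 fold change 1.91, SE 0.290, edgeR adjusted p = 0.00875, stable). Inhbb, the activin B subunit, rose from 64.1, 79.9, 57.5 and 65.6 CPM to 112, 141, 154 and 151 CPM (log2 fold change 1.06, SE 0.125, edgeR adjusted p = 0.00332, stable). Both groups were compact for Inhbb and far apart. Pdgfrb, the PDGF receptor of pericytes and fibroblasts, rose from 215, 190.2, 195 and 167 CPM to 272, 279, 280.1 and 299 CPM (log2 fold change 0.56, SE 0.0983, edgeR adjusted p = 0.0114, stable). Prg4, the lubricant proteoglycan lubricin, rose from 114, 136, 75.7 and 99.2 CPM to 228, 162, 236 and 282 CPM (log2 fold change 1.10, SE 0.209, edgeR adjusted p = 0.0159, stable). Fgf7, the keratinocyte growth factor of fibroblasts, rose from 31.2, 34.9, 18.0 and 26.4 CPM to 54.5, 46.4, 53.2 and 48.3 CPM (log2 fold change 0.87, SE 0.177, edgeR adjusted p = 0.0193). The call of Fgf7 was lost without S. aureus replicate 3 (adjusted p = 0.0608). Its receptor gene Fgfr2, which keratinocytes and other epithelial cells express, fell from 16.4, 13.4, 39.2 and 16.8 CPM to 10.2, 7.32, 5.26 and 6.15 CPM (log2 fold change -1.57, SE 0.327, edgeR adjusted p = 0.0217; -1.09 without vehicle replicate 3). The call of Fgfr2 was lost in turn without each of S. aureus replicates 2, 3 and 4 (p up to 0.0752 after adjustment).

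The fibroblast genes that fell included secreted matrix proteins. Clec3b, tetranectin, fell from 34.1, 29.1, 70.4 and 23.8 CPM to 16.5, 6.63, 8.84 and 5.43 CPM (log2 fold change -2.08, SE 0.402, edgeR adjusted p = 0.0164). Cilp, a matrix protein that binds TGF-beta, fell from 34.5, 24.0, 118 and 32.4 CPM to 10.8, 4.4, 6.43 and 11.7 CPM (log2 fold change -2.65, SE 0.502, edgeR adjusted p = 0.0159), and by 1.85 on the log2 scale without vehicle replicate 3. The call of Clec3b was lost in turn without each of S. aureus replicates 2 and 3 (p up to 0.0595 after adjustment) and that of Cilp without S. aureus replicate 3 (adjusted p = 0.0599). C1qtnf3, a secreted adipokine of the C1q family, fell from 8.68, 3.83, 15.5 and 5.05 CPM to 1.99, 1.12, 1.98 and 1.82 CPM (log2 fold change -2.26, SE 0.384, edgeR adjusted p = 0.0107, stable). Ltbp1, which stores latent TGF-beta in matrix, fell from 54.2, 55.2, 49.7 and 55.8 CPM to 38.3, 41.6, 41.3 and 31.4 CPM (log2 fold change -0.49, SE 0.0945, edgeR adjusted p = 0.0159, stable). In none of these genes did the groups overlap. Of 19 genes of TGF-beta, activin and bone morphogenetic protein signalling 5 were called higher and 1 lower.

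Wnt genes were called in both directions. Of 21 genes of the pathway 3 were called lower, all of them ligands (Wnt3, Wnt7b and Wnt11), and 3 higher (Wnt5a and the antagonists Nkd2 and Dkk3), with a median of -0.45. Wnt7b, a ligand of basal keratinocytes, was at 1.54, 1.25, 2.10 and 1.35 CPM with vehicle and 0, 0.311, 0 and 0.247 CPM with S. aureus (log2 fold change -3.33, SE 0.687, edgeR adjusted p = 0.0209, stable). These levels rest on 361 counts over the vehicle libraries and 31 over the S. aureus libraries, a vehicle to S. aureus ratio of 9.61 (95% interval 6.65 to 14.4, counting error only). Wnt11 fell from 3.64, 2.28, 5.65 and 1.93 CPM to 0.993, 0.812, 1.19 and 1.46 CPM (log2 fold change -1.60, SE 0.328, edgeR adjusted p = 0.0205). The call of Wnt11 was lost in turn without each of S. aureus replicates 2 and 3 (p up to 0.0633 after adjustment). Nkd2, an intracellular inhibitor of Wnt signalling, rose from 7.79, 8.54, 9.10 and 9.22 CPM to 12.3, 14, 12.5 and 12.3 CPM (log2 fold change 0.56, SE 0.0987, edgeR adjusted p = 0.0114, stable). In these 3 genes no library of one group reached the range of the other.

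Kit, the stem cell factor receptor of mast cells and melanocytes, rose, and Mitf, a transcription factor of both cell types, fell. Kit was at 28.2, 40.4, 29.8 and 32.4 CPM with vehicle and 66.6, 91.3, 76.9 and 66.4 CPM with S. aureus (log2 fold change 1.2, SE 0.136, edgeR adjusted p = 0.00332, stable). Mitf was at 54.4, 49.1, 57.9 and 45.9 CPM and 36.9, 35.7, 35.5 and 37.8 CPM (log2 fold change -0.51, SE 0.0787, edgeR adjusted p = 0.00875, stable). Of 14 mast cell and basophil genes Kit was the sole one called, 7 had a log2 fold change above 0, and the median was -0.10. The list score overlapped between groups (up to 0.69 with S. aureus, -0.18 to 0.35 with vehicle), while the summed level, which follows the most abundant genes, was 921 to 1369 CPM with S. aureus and 382 to 851 CPM with vehicle. Epx, the eosinophil peroxidase, had the highest log2 fold change of the genes given here, with 0, 0.0383, 0.0158 and 0.0182 CPM for vehicle and 0.366, 0.207, 0.356 and 0.342 CPM for S. aureus (log2 fold change 3.99, SE 0.559, edgeR adjusted p = 0.00708, stable). These levels rest on 4 counts over the vehicle and 58 over the S. aureus libraries, a ratio of 17.6 (95% interval 6.51 to 66.7, counting error only). The other 6 eosinophil genes tested were not called, and the summed level of all 7 overlapped (13 to 15.7 CPM with S. aureus, 8.54 to 19.7 CPM with vehicle). Among 21 T and NK cell genes 2 were called higher (Thy1 and Ctla4; 0 without vehicle replicate 3), and Prf1 was at 0 in at least 1 library.

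**Figure D4:**
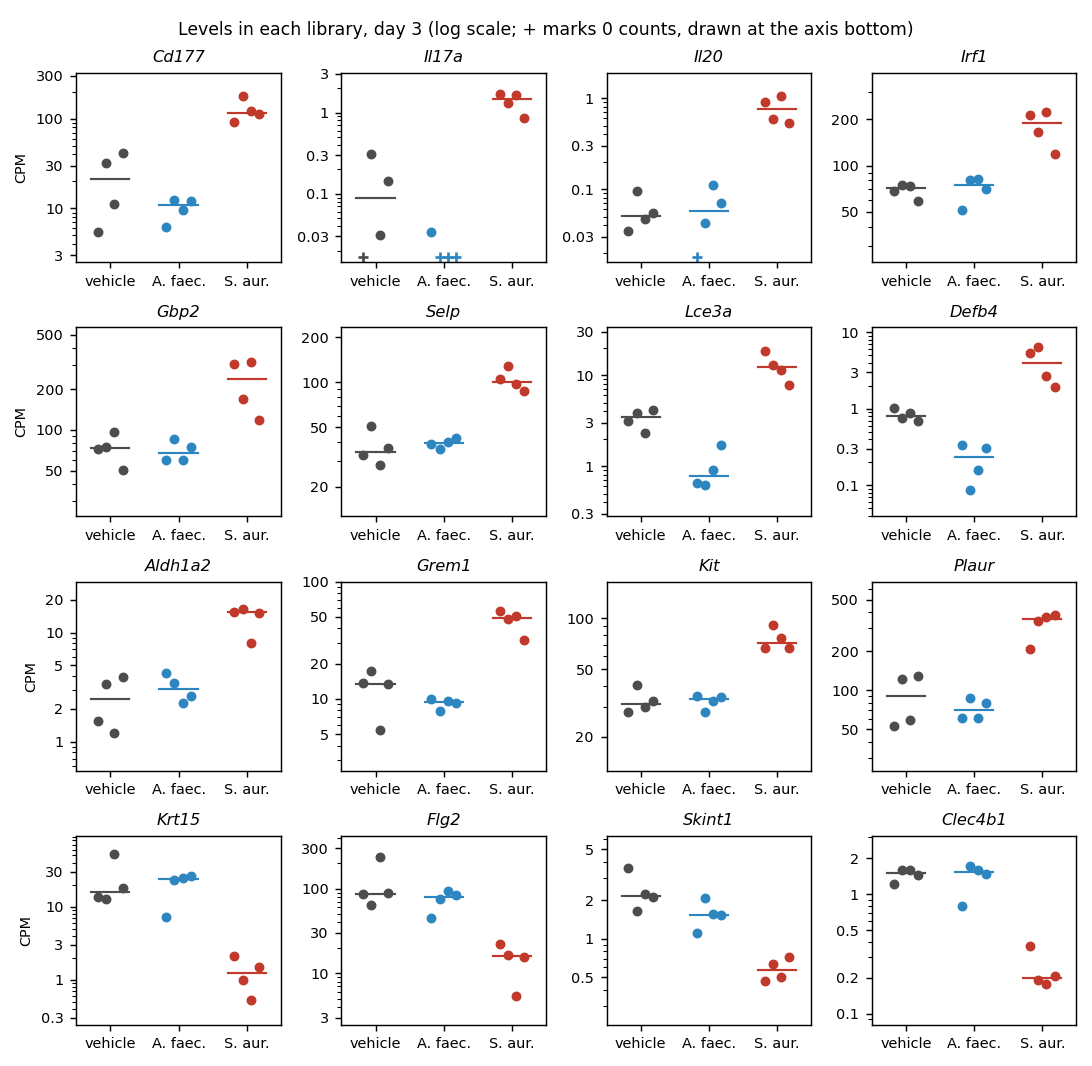
CPM of 16 genes in every library (y axes, log scale; x axis, treatment with 4 libraries each). Dots are libraries, bars group medians and crosses libraries with 0 counts. In Krt15, for example, S. aureus libraries lay between 0.533 and 2.14 CPM and vehicle libraries between 12.9 and 51.7 CPM.

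Many replication-dependent histone genes, whose transcripts mostly lack poly(A) tails, rose. Of 50 genes of the Hist1 cluster that were tested 30 were called higher and 0 lower, 7 were stable, the median was 0.55, and in 41 the S. aureus libraries lay above every vehicle library, against 7.56% of all genes. The linker histone gene Hist1h1c was at 168, 154, 170.2 and 193 CPM with vehicle and 349.6, 285, 489 and 651 CPM with S. aureus (log2 fold change 1.37, SE 0.214, edgeR adjusted p = 0.00875, stable). Hist1h1e rose from 101, 90.8, 80.2 and 100.0 CPM to 177, 166, 235 and 258 CPM (log2 fold change 1.17, SE 0.149, edgeR adjusted p = 0.00648, stable). Hist1h4n, a core histone H4 gene, rose from 89.8, 89.7, 85.1 and 84.4 CPM to 127, 137, 163 and 165 CPM (log2 fold change 0.76, SE 0.110, edgeR adjusted p = 0.00791, stable). S. aureus replicates 3 and 4 held the higher levels of all 3. Many core histone genes of the cluster are near-identical in sequence within their class, so their single values are uncertain and the 50 are not independent of each other.

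Cell cycle genes were shifted by less. Of 28 such genes 26 had a log2 fold change above 0, 2 were called higher (Rrm2 and Tyms; 1 without vehicle replicate 3) and 0 lower, and the median was 0.29. The proliferation marker Mki67 overlapped, with 257, 182, 150.4 and 152 CPM for vehicle and 226, 199, 212 and 239.6 CPM for S. aureus (log2 fold change 0.24, SE 0.157, edgeR adjusted p = 0.352). Among 19 immediate-early genes 3 were called higher (Fos, Egr1 and Myc) and 0 lower. Myc, a transcription factor of growth, rose from 37.7, 41.3, 28.6 and 29.1 CPM to 54.9, 59.0, 61.4 and 62.0 CPM (log2 fold change 0.80, SE 0.114, edgeR adjusted p = 0.00776, stable). Egr1 rose from 52.3, 104, 43.0 and 117 CPM to 173, 214, 346 and 282 CPM (log2 fold change 1.69, SE 0.327, edgeR adjusted p = 0.0166) and Fos from 47.8, 95.4, 43.4 and 71.5 CPM to 138, 115, 204 and 179.9 CPM (log2 fold change 1.30, SE 0.259, edgeR adjusted p = 0.0185). The call of Egr1 was lost without S. aureus replicate 3 (adjusted p = 0.0563) and that of Fos in turn without each of S. aureus replicates 3 and 4 (p up to 0.06 after adjustment). The infected wounds were above all control wounds in the 3 genes.

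Genes of insulin signalling were called in both directions, some of the stress response higher and some of the clock lower. Igfbp2, a binding protein of insulin-like growth factors, was at 4.82, 5.10, 13.9 and 19.1 CPM with vehicle and 2.40, 1.14, 0.660 and 1.42 CPM with S. aureus (log2 fold change -2.93, SE 0.510, edgeR adjusted p = 0.0113, stable). Irs2, an adaptor of the insulin receptor, rose from 78.3, 92.9, 77.7 and 103 CPM to 129, 149, 123 and 131 CPM (log2 fold change 0.60, SE 0.116, edgeR adjusted p = 0.0164, stable). Asns, asparagine synthetase of the amino acid stress response, rose from 21.5, 26.5, 24.2 and 24.4 CPM to 32.7, 35.7, 38.1 and 39.5 CPM (log2 fold change 0.60, SE 0.0978, edgeR adjusted p = 0.0101, stable). Of 16 genes of insulin, IGF and leptin signalling 4 were called higher and 2 lower (median -0.31), and of 19 genes of the unfolded protein and stress response 6 were higher and 0 lower. Without vehicle replicate 3 these counts were 3 higher and 1 lower on the first list and 3 higher and 0 lower on the second. Per3, a clock gene, fell from 45.5, 33.9, 58.2 and 31.5 CPM to 24.0, 21.9, 19.3 and 16.7 CPM (log2 fold change -1.05, SE 0.224, edgeR adjusted p = 0.0238). The call of Per3 was lost in turn without each of vehicle replicate 1 and S. aureus replicates 2, 3 and 4 (p up to 0.0791 after adjustment). It was 1 of 3 clock genes called lower among 16, with Tef and Hlf, and 0 were higher; without vehicle replicate 3 the count was 1 lower and 1 higher, and the list median moved from -0.30 to -0.15. Of 20 nuclear genes of oxidative phosphorylation 1 was called (Cox7a1, lower; 0 without vehicle replicate 3), while in 10 the S. aureus libraries lay below all vehicle libraries, against 7.57% of all genes.

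Some erythroid genes fell. Of 9 tested, all had a log2 fold change below 0, 4 were called lower (among them Hba-a2, Hbb-bs and Alas2) and 0 higher, with a median of -1.04 (-1.10 without vehicle replicate 3). Alas2, the erythroid enzyme that starts haem synthesis, fell from 43.7, 45.1, 36.9 and 33.4 CPM to 23.8, 17.2, 18.5 and 21.2 CPM (log2 fold change -0.98, SE 0.211, edgeR adjusted p = 0.0241). Hba-a2, an alpha-globin gene, fell from 12.4, 10.9, 5.03 and 9.76 CPM to 4.34, 2.09, 4.55 and 4.22 CPM (log2 fold change -1.33, SE 0.293, edgeR adjusted p = 0.0248). Groups did not overlap in either. The call of Alas2 was lost in turn without each of vehicle replicate 1 and S. aureus replicates 2, 3 and 4 (p up to 0.0834 after adjustment) and that of Hba-a2 in turn without each of vehicle replicate 1 and S. aureus replicates 2, 3 and 4 (p up to 0.0618 after adjustment).

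Some fat and muscle genes were called lower, 10% of each list against 2.97% of all genes tested. The differences were smaller once vehicle replicate 3 was left out. Of 20 adipocyte genes 2 were called lower (Thrsp and Car3; 1 without vehicle replicate 3) and 0 higher; the median was -1.15 with all libraries and -0.37 without that library. The summed level of the list was 3900 to 7131 CPM with S. aureus and 6334 to 27715 CPM with vehicle, and Plin1, a lipid droplet protein, was at 0 in at least 1 library. The adipokine Adipoq was at 111, 113, 565 and 155 CPM with vehicle and 163, 106, 87.4 and 78.1 CPM with S. aureus (log2 fold change -1.12, SE 0.490, edgeR adjusted p = 0.166; -0.21 without vehicle replicate 3). Thrsp, a regulator of fat synthesis, was at 14.5, 16.6, 132 and 25.7 CPM and 7.71, 3.94, 2.11 and 3.95 CPM (log2 fold change -3.42, SE 0.696, edgeR adjusted p = 0.0203; -2.09 without vehicle replicate 3). The call of Thrsp was lost in turn without each of S. aureus replicates 2, 3 and 4 (p up to 0.0703 after adjustment). Of 20 skeletal muscle genes 2 were lower, Mb (log2 fold change -1.19, SE 0.252, edgeR adjusted p = 0.0227) and Myh3, a myosin of developing and regenerating muscle, which was at 6.37, 1.86, 14.9 and 4.37 CPM with vehicle and 0.418, 0.898, 0.686 and 0.437 CPM with S. aureus (log2 fold change -3.48, SE 0.592, edgeR adjusted p = 0.0107, stable; -2.75 without vehicle replicate 3). The call of Mb was lost in turn without each of S. aureus replicates 3 and 4 (p up to 0.0777 after adjustment). The summed level of the muscle list was 1745 to 2232 CPM with S. aureus and 1757 to 3150 CPM with vehicle. The median of 15 sebaceous gland genes was -0.94 (-0.57 without vehicle replicate 3).

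Kcne4, Rab11fip5 and Fam107b were stable calls outside the lists. Kcne4, a potassium channel subunit, was at 8.59, 13.2, 8.69 and 10.3 CPM with vehicle and 28.3, 26.6, 31.4 and 26.4 CPM with S. aureus (log2 fold change 1.47, SE 0.165, edgeR adjusted p = 0.00332). Rab11fip5, a Rab11 effector of endosome recycling, fell from 72.0, 70.9, 70.9 and 68.2 CPM to 47.7, 41.6, 48.8 and 47.6 CPM (log2 fold change -0.60, SE 0.0677, edgeR adjusted p = 0.00332). Fam107b rose from 61.0, 96.1, 59.3 and 131 CPM to 171, 238, 461 and 380.5 CPM (log2 fold change 1.85, SE 0.318, edgeR adjusted p = 0.0109). The spread within each group was small beside the difference for Kcne4 and Rab11fip5, and wider for Fam107b.

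The wounds that received the other bacterium give the levels of the same genes under another bacterial treatment. The contrasts share the S. aureus libraries, so no overlap of their calls is given; levels and the test of S. aureus against A. faecalis are given for a few genes chosen after their values were seen. With A. faecalis the 4 libraries held 38.9, 35.6, 40.0 and 42.4 CPM of Selp, 51.6, 80.2, 81.8 and 69.9 CPM of Irf1, 6.19, 12.5, 9.68 and 12 CPM of Cd177 and 61.6, 87.9, 61.5 and 80.3 CPM of Plaur. S. aureus differed from A. faecalis in each of them (edgeR adjusted p = 0.00104, 0.00215, 0.00254 and 0.002). Lce3a stood at 0.659, 0.617, 0.919 and 1.71 CPM with A. faecalis and Defb4 at 0.338, 0.0861, 0.158 and 0.308 CPM, both under the vehicle range. S. aureus differed from A. faecalis in both (edgeR adjusted p = 0.000713 and 0.000795), while A. faecalis against vehicle was called in neither (edgeR adjusted p = 0.263 and 0.371). Krt15 was at 7.25, 22.9, 24.9 and 26.4 CPM and Clec4b1 at 0.794, 1.72, 1.58 and 1.47 CPM with A. faecalis, above all S. aureus libraries (edgeR adjusted p = 0.00257 and 0.000834). Other genes did not differ past the threshold between the bacteria. Alas2 was at 40.0, 22.6, 24.6 and 18.4 CPM and Hba-a2 at 5.71, 5.32, 5.12 and 3.87 CPM with A. faecalis, and S. aureus against A. faecalis was not called for either (edgeR adjusted p = 0.252 and 0.396). Cxcl9 and Wnt11, for example, were not called in that contrast either (edgeR adjusted p = 0.398 and 0.0783). A. faecalis against vehicle was not called for Alas2, Hba-a2, Cxcl9 or Wnt11 (edgeR adjusted p = 0.565, 0.519, 0.539 and 0.652). EdgeR called 2310 of 18218 genes (12.7%) between the 2 bacteria.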

How the data were processed

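RNA sequencing of whole wound skin was analysed in the 12 libraries of the series, of which the 4 S. aureus and 4 vehicle libraries were compared. Per the labels' protocols the kit was a stranded total-RNA kit with ribosomal depletion. The deposited table holds the authors' estimated counts per gene, unnormalized; per the submitters' processing notes kallisto 0.48.0, DESeq2 1.34.0, R 4.1.3, FastQC 0.12.1 and genome build GRCm39 were used, in roles the notes do not give. Kallisto divides reads shared by similar transcripts, so values of close paralogs are uncertain. The sources used here do not say whether counting used strand or how transcripts were summed to genes. The 1 entry without a gene name (0.00909% to 0.0151% of each library) was left out.

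Rounded counts were tested in R 4.3.3 by edgeR 4.0.16. The model took all 12 libraries with 1 mean per group, so the A. faecalis libraries share in the estimate of spread. Settings were TMM scaling, filterByExpr (minimum count 10, minimum total 15), the robust two-sided quasi-likelihood test and Benjamini-Hochberg adjustment over 18218 genes, with a threshold of 0.05. The method was tested on simulated data. SE is the absolute log2 fold change divided by the square root of F. P-values measure the spread between libraries.

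The 65 lists held 1075 symbols, of which 1067 were found in the table (12 under an older name) and 1040 were tested. Lists are given as counts and medians with no test; a list score is the mean log2 CPM (prior count 2) centred on the 12-library mean of each gene. The comparison, its members, the lists and the alternatives were chosen with earlier results of these data known. Genes were named by rule: the 12 stable genes at each end of the fold change with a mean of at least 1 CPM, up to 3 called members and the first member of each list, and the 6 stable genes of smallest p; predicted genes were not named, and some genes are not reported here. Other genes named are list members or were chosen after their values were seen, among them Oas3, Bmx, Maf, Fcrls, Epx, Lce3f, Skint1, Skint6, Wnt7b and the histone genes. Promoters came from a RefSeq table of GRCm38.p6, another build than the counts, and matched 67.2% of the genes tested, so no share of motifs by gene set is given.

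The alternatives tried were scaling by upper quartiles or by DESeq2 size factors, DESeq2 1.42.0 or limma-voom (limma 3.58.1), no filter or a mean of at least 1 CPM, the 8 libraries alone, the replicate number as a block, a threshold of 0.1, and each library left out.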

Additional observations from a re-analysis of the deposited data

Results flagged for a closer look

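In 240 groups of 4 libraries checked (120 genes, S. aureus and vehicle), 19 held 1 library whose distance to the nearest other exceeded Dixon's critical share of the group's range; chance alone flags about 1 group in 20.

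Vehicle replicate 3 was the library apart in 8 of them, each time above the other vehicle libraries. It held 51.7 CPM of Krt15 (others 12.9 to 18.2), 141 CPM of Krt77 (34.6 to 51.2), 235 CPM of Flg2 (64.0 to 87.9) and 7.15 CPM of Serpina1a (2.40 to 2.53). It also held 39.2 CPM of Fgfr2 (13.4 to 16.8), 118 CPM of Cilp (24.0 to 34.5), 565 CPM of Adipoq (111 to 155) and 132 CPM of Thrsp (14.5 to 25.7). Fcrls was at 28.2 CPM in vehicle replicate 1 (others 12.8 to 15.1), and Pltp, a phospholipid transfer protein of macrophages, at 206 CPM in vehicle replicate 4 (282 to 295).

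S. aureus replicate 1 stood apart with 288 CPM of Tnfrsf1a (others 304 to 306), 185 CPM of Aplnr (238 to 242), 0.366 CPM of Clec4b1 (0.178 to 0.209) and 39.3 CPM of Cd55 (29.9 to 31.1). In all 4 genes it was the infected wound nearest to the vehicle range. S. aureus replicate 2 stood apart with 14 CPM of Nkd2 (12.3 to 12.5), 2.09 CPM of Hba-a2 (4.22 to 4.55) and 0.207 CPM of Epx (0.342 to 0.366). S. aureus replicate 3 held 8.10 CPM of Aldh1a2 (15.2 to 16.3), and S. aureus replicate 4 held 32.4 CPM of Serpina3g (55.0 to 57.6).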

How the results depend on the processing

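The count of called genes depended on the method and on single libraries. DESeq2's Wald test called 2876 genes (1561 higher, 1315 lower, 844 at least 2-fold), and a threshold of 0.1 gave 2859 (1411, 1448, 804). A fit of the 8 libraries alone gave 350 (238, 112, 136), against 1246 (705, 541, 424) in the fit reported. Leaving out 1 library gave 260 to 1750 called genes, 170 to 994 higher, 90 to 756 lower and 118 to 705 at least 2-fold. The lowest counts came without S. aureus replicates 3 (260), 4 (381) and 2 (451), and those without vehicle replicate 1 (672) and A. faecalis replicate 3 (792) also fell by over 1.5 times. The direction with more calls changed with scaling (619 higher and 679 lower with upper-quartile scaling, 774 and 489 with DESeq2 size factors), while the median log2 fold change of all genes moved between -0.06 and -0.02. Of the 105 called genes given with values, all 105 stayed called under both scalings and under limma-voom. In the fit of 8 libraries 72 stayed called, without S. aureus replicate 3 71, and without vehicle replicate 3 103. None changed sign. The naming rule favoured stable genes (69 of the 105), so these counts were partly fixed by selection. Of all 1246 calls, 95.8% and 92.7% were kept under the 2 scalings (DESeq2 size factors and upper quartiles) and 91.8% under limma-voom. The fit of 8 libraries kept 27.4%, that without S. aureus replicate 3 20.6% and that without vehicle replicate 3 63.0%. Same-numbered libraries of the 2 groups had low correlations of their deviations (0.08, -0.03, -0.21 and 0.08), and none correlated best with its own number. With 4 libraries per group such values cannot exclude a shared day, batch or litter, so no conclusion is drawn. With the replicate block 1038 genes were called (671 higher, 367 lower, 372 at least 2-fold), and 68.4% of the main calls were kept. Of the called genes, 96 had a mean under 1 CPM, where depth limits precision.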
